A study of Cricetulus griseus with 6 samples.

Results

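The TGF-beta and BMP signalling genes were examined in CHO-T cells after knockdown of *Xbp1*. A list of 42 symbols was drawn up from the core of the pathway, comprising ligands, latent binding proteins, receptors, Smads, inhibitors and Id target genes, and the entries with these symbols were taken from the expression files. Of the 42 genes, 39 had an entry among the 27873 entries of each file, and *Id4*, *Acvr1b* and *Bmpr1b* were not analysed here. The CHO-T line is derived from Chinese hamster ovary (CHO) cells and stably expresses mouse T-cadherin (*Cdh13*) from a retroviral vector after puromycin selection, and both groups carry this transgene. One group received negative control siRNA (n = 3 libraries) and the other *Xbp1* siRNA (n = 3 libraries), and RNA was taken from both on the same schedule, at a single time point. XBP1 is a transcription factor of the unfolded protein response, the response to misfolded protein in the endoplasmic reticulum. The study lists a single *Xbp1* siRNA sequence. It reports that the silencing raised phosphorylated IRE1α, a sensor of this response, and the phosphorylated kinase JNK. Whether these or other effects of the siRNA have a part in the results below was not tested. Expression is given in FPKM, fragments per kilobase of transcript scaled to the mapped fragments of the library, a scale on which levels of different genes can be compared.

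Ligands of the TGF-beta family are secreted dimers that bring together type II and type I receptor kinases at the cell surface. TGF-betas and activins act mainly through Smad2 and Smad3, and BMPs through Smad1, Smad5 and Smad9, and both kinds of Smad join Smad4 and enter the nucleus to regulate genes such as the Id genes. TGF-beta is secreted in a latent complex with LTBP proteins in the matrix, and the pathway is held back at several levels by ligand traps, decoy receptors, inhibitory Smads, ubiquitin ligases and nuclear corepressors.

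The labels were checked on the silenced gene. *Xbp1* had 26.0, 26.2 and 28.4 FPKM in the control libraries and 2.18, 2.11 and 1.39 FPKM in the *Xbp1* siRNA libraries, which left 7.05% of the control mean. The entry for *Cdh13* fell from 85.2 ± 0.478 to 32.9 ± 0.476 FPKM (SD, n = 3 libraries per group), and whether this hamster entry also counts reads of the mouse transgene is not given in the sources used here. The study describes the parent cells as lacking detectable T-cadherin of their own. The columns summed to between 646651 and 666267 FPKM in the control libraries and between 593487 and 600986 FPKM in the *Xbp1* siRNA libraries. The values were not rescaled for this difference in the tests below. The steps between weak values put the depth of the libraries between 94.0% and 116% of that of control replicate 1. Of the ovarian markers examined, *Fshr* was at 0 in all libraries, and *Amh* and *Inha* had means of 2.69 and 2.63 FPKM in the control group, so the ovarian origin in the labels rests on the name of the cell line. Of the 7 mesenchymal markers with an entry, which include *Vim* at 377 ± 10.7 FPKM in the control group (SD, n = 3), *Col1a1* and *Thy1* were at 0, and their summed level was 2138 to 2290 FPKM in the control libraries and 1172 to 1212 FPKM in the *Xbp1* siRNA libraries, a sum that is mostly *S100a6* (1794 and 832 FPKM, called lower). *Vim* was also lower by the adjusted p, *Fn1* was higher (13.1 and 23.3 FPKM), and *Tagln* was at 5.34 and 7.52 FPKM and did not pass. Of the 5 epithelial markers with an entry, *Krt18* and *Krt19* were at 0, and the summed level was 1.83 to 2.16 FPKM in the control libraries and 4.64 to 5.79 FPKM in the *Xbp1* siRNA libraries, with *Epcam* called higher. *Cdh1* was also called higher, close to the limit (adjusted p = 0.0489, limma), on 8, 1 and 5 reads with control siRNA and 13, 14 and 23 reads with *Xbp1* siRNA. The part of these marker changes in the results below was not tested. In RNA from whole cultures, a change in every cell and a change in a fraction of the cells cannot be told apart.

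After knockdown of *Xbp1*, the activin subunit *Inhbb*, the receptor *Tgfbr2* and the nuclear corepressors *Ski* and *Tgif1* fell to between 28.4% and 43.9% of the control mean. *Ltbp1* and *Id3* fell to 51.1% and 52.4%. Smaller increases were found in *Smad5* and in the activin trap *Fst*, and *Smad7* was at 200.5% of its control mean at a low level. *Tgfb1* itself did not pass the test, nor did *Tgfbr1* or *Smad4*.

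Of the 39 genes, 34 had a mean of at least 0.1 FPKM and were tested, with limma on the log2(FPKM + 0.1) scale, together with all 14361 genes above this limit. This scale understates the change of weakly expressed genes. P-values were adjusted over all genes tested (Benjamini-Hochberg), and called genes are those with an adjusted p under 0.05 and a change of at least 1 on the log2 scale in either direction. Of the 34 genes, 4 (11.8%) were called lower and 0 were called higher, where 2.5% of all genes tested were called lower and 2.69% higher. The genes, their roles and the lists used further on were chosen with earlier results of these data known. These shares and those below are therefore a description only. At a limit of 1.5-fold, 6 of the 34 were lower and 2 higher, where 6.73% of all genes were lower and 6.95% higher. With the adjusted p alone, 10 of the 34 (29.4%) were lower and 8 (23.5%) were higher, where 20.2% of all genes were lower and 20.2% higher. The share that passed in either direction was 52.9% for the pathway and 40.4% for all genes. The groups did not overlap in 14 of the 34 genes with lower values and in 9 with higher values, where 25.8% and 26.1% of all genes did so. The median log2 fold change was -0.08 over the 34 genes and 0.01 over all genes tested, and the median size of the change was 0.26 and 0.27. Leaving out 1 library at a time, 4 to 5 of the genes were called lower, and 9 to 10 were lower and 3 to 5 higher by the adjusted p alone, and the median log2 fold change lay between -0.10 and -0.028 (the latter without *Xbp1* siRNA replicate 2). Of the 18 genes that passed, 8 lower and 3 higher ones passed under every alternative tried.

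**Figure D1:**
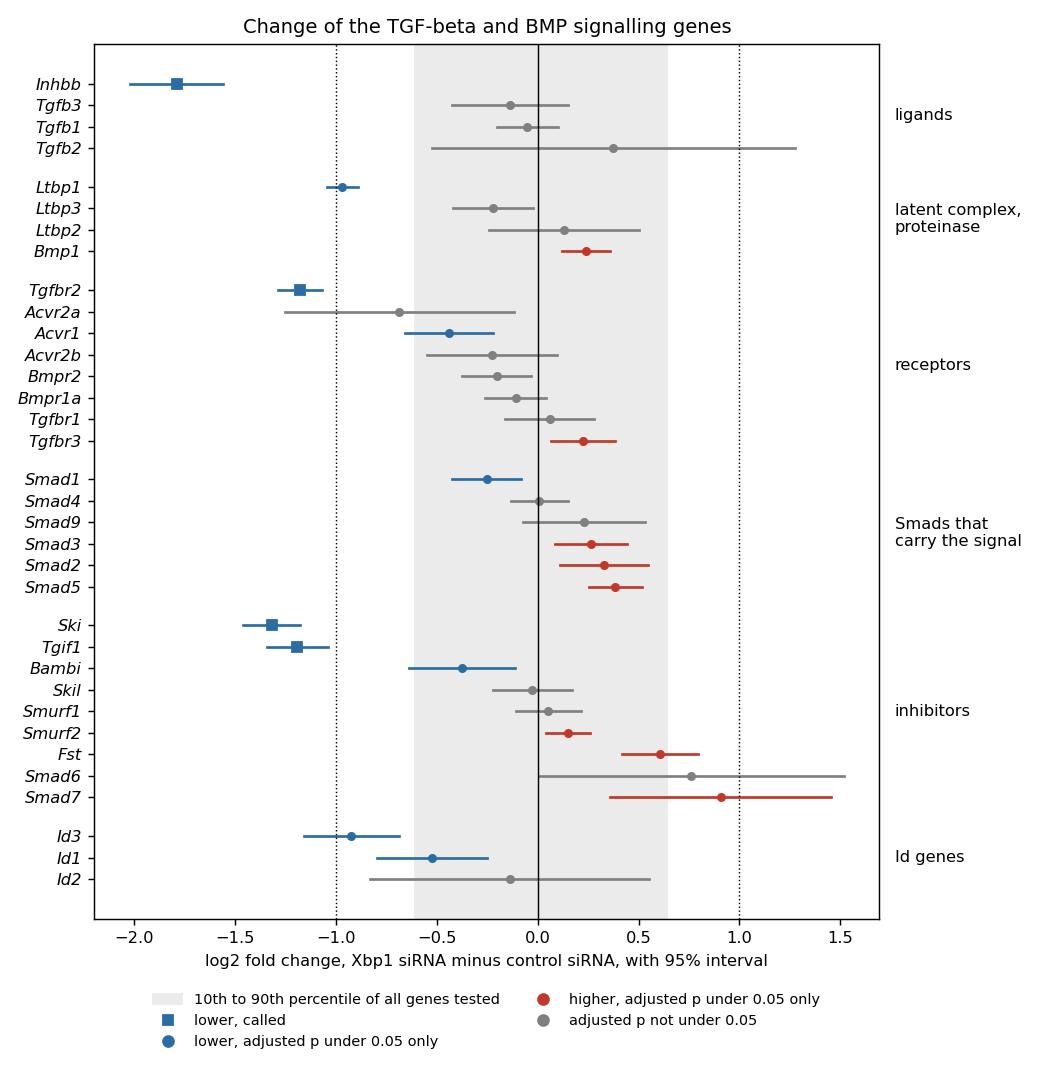
The x axis gives the log2 fold change, *Xbp1* siRNA minus control siRNA, of the 34 genes tested, with the 95% interval as a line, and genes are grouped by role on the y axis. Squares are called genes, coloured circles passed the adjusted p alone (blue lower, red higher), grey circles did not pass, dotted lines stand at the fold limit, and the shaded band is the 10th to 90th percentile of all genes (-0.61 to 0.64). *Inhbb*, *Ski*, *Tgif1* and *Tgfbr2* stand to the left of the limit, and no point stands to the right of the upper one.

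Among the ligands, *Inhbb* changed most. It encodes the beta B subunit, which pairs with itself as activin B and with the alpha subunit as inhibin B. *Inhbb* had 17.1, 16.3 and 14.03 FPKM in the control libraries and 4.86, 4.24 and 4.38 FPKM in the *Xbp1* siRNA libraries. All 3 control libraries were above all 3 *Xbp1* siRNA libraries, by more than the spread within either group. The mean fell from 15.8 ± 1.58 to 4.49 ± 0.325 FPKM (SD, n = 3 libraries), a log2 fold change of -1.79 (SE 0.10, adjusted p = 1.47e-05, limma). Only 0.808% of all genes tested had a lower log2 fold change. The gene for the other common activin subunit, *Inhba*, was listed at 0 in all 6 libraries, as was the gene for the BMP ligand *Bmp2*. *Bmp4* had 0.149 FPKM in control replicate 2 and 0 in the other libraries, and was not tested.

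*Tgfb1*, the most abundant TGF-beta gene in these cells, had 17.2, 18.0 and 15.8 FPKM in the control libraries and 16.6, 15.8 and 16.6 FPKM in the *Xbp1* siRNA libraries. These groups overlapped, and the log2 fold change of -0.05 had a 95% interval of -0.20 to 0.10 (adjusted p = 0.565, limma). In the control group *Tgfb1* and *Inhbb* stood at similar levels, with means of 17.0 and 15.8 FPKM that differ by less than the SD of *Inhbb*, whereas after knockdown *Tgfb1* was at 16.4 and *Inhbb* at 4.49 FPKM. *Tgfb3* was at 5.53 ± 0.468 FPKM in the control group and 5.04 ± 0.646 FPKM after knockdown (SD, n = 3), a change of -0.14 on the log2 scale (adjusted p = 0.417, limma). *Tgfb2* was near the limit of detection. Its values fell on steps of single reads and came to 6, 5 and 4 reads with control siRNA and 8, 11 and 6 reads with *Xbp1* siRNA, so that no difference was detectable at this depth (adjusted p = 0.480, limma).

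**Figure D2:**
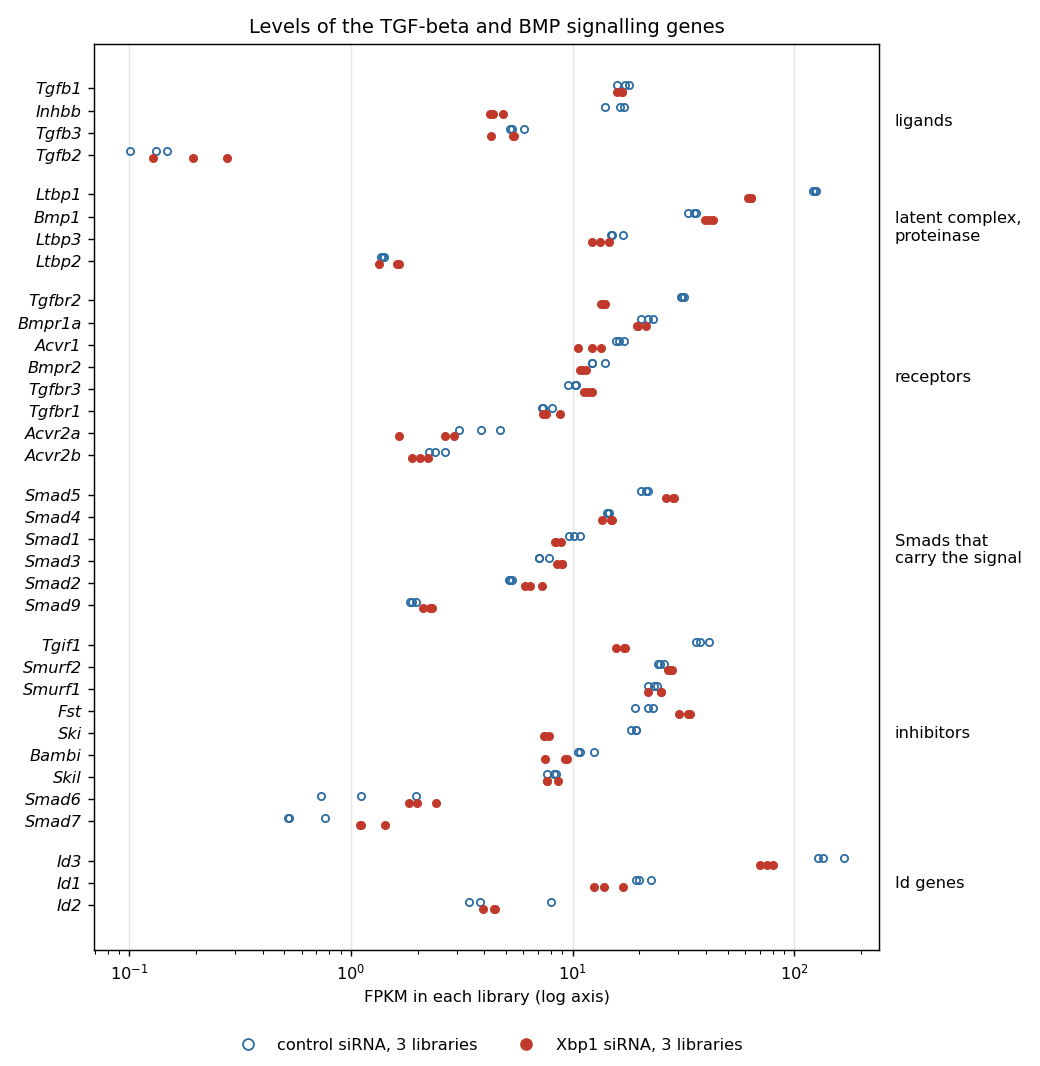
Each point is the FPKM of 1 library on a log axis, with control siRNA as open blue circles and *Xbp1* siRNA as filled red circles, for the 34 genes tested, grouped by role and ordered by control level. *Ltbp1* and *Id3* have the highest control values, above 100 FPKM, and *Tgfb2* the lowest, and the 2 colours are clear of each other for *Inhbb*, *Ltbp1*, *Tgfbr2*, *Tgif1*, *Ski* and *Id3*.

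Of the genes of the latent complex, *Ltbp1* fell. LTBP1 binds the latent form of TGF-beta and anchors it in the matrix. *Ltbp1* had 121, 124 and 125 FPKM in the control libraries and 63.6, 63.6 and 61.6 FPKM in the *Xbp1* siRNA libraries. The groups were far apart and each was tight, with means of 123 ± 1.88 and 62.9 ± 1.16 FPKM (SD, n = 3 libraries). The log2 fold change was -0.97 (SE 0.03, adjusted p = 2.17e-06, limma), just short of the fold limit. *Ltbp3* was at 15.6 FPKM in the control group and 13.4 FPKM after knockdown (log2 fold change -0.22, adjusted p = 0.0749, limma). It passed with the replicate number as a block (adjusted p = 0.0329, limma), and its adjusted p without a library was between 0.0410 and 0.202. *Ltbp2* was at 1.39 and 1.53 FPKM (adjusted p = 0.552, limma), and *Ltbp4* was listed at 0 in all libraries. *Bmp1*, a metalloproteinase that cleaves procollagens, latent TGF-beta binding protein and BMP antagonists, was higher after knockdown, at 43.0, 39.4 and 41.2 FPKM against 36.1, 35.3 and 33.3 FPKM, which is 0.24 on the log2 scale (adjusted p = 0.00784, limma).

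Of the 8 receptor genes tested, 2 were lower (25.0%) and 1 higher (12.5%) by the adjusted p, near the 20.2% of all genes in each direction, and 5 did not pass. *Tgfbr2*, which binds TGF-beta and phosphorylates the type I receptor, was the most abundant receptor gene of the list in the control group. *Tgfbr2* had 30.9, 31.2 and 31.9 FPKM in the control libraries and 14.04, 13.4 and 13.8 FPKM in the *Xbp1* siRNA libraries. The spread within each group was small beside this gap. The mean fell from 31.3 ± 0.491 to 13.8 ± 0.324 FPKM (SD, n = 3 libraries), a log2 fold change of -1.18 (SE 0.05, adjusted p = 3.87e-06, limma). *Tgfbr1*, the type I receptor, was at 7.59 ± 0.441 and 7.92 ± 0.762 FPKM (SD, n = 3), with a log2 fold change of 0.06 and a 95% interval of -0.16 to 0.28 that did not reach the change of *Tgfbr2*. The ratio of *Tgfbr2* to *Tgfbr1* within a library was formed after the values were seen. It lay between 3.94 and 4.29 in the control libraries and between 1.53 and 1.88 after knockdown. For this ratio, the smallest p of a two-sided exact permutation test with 3 libraries per group is 0.10.

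After knockdown *Tgfbr2* was no longer the most abundant receptor gene, and *Bmpr1a*, a type I receptor for BMPs, was above it at 20.2 ± 1.07 FPKM (SD, n = 3). *Bmpr1a* itself was at 21.8 ± 1.33 FPKM in the control group and did not pass (log2 fold change -0.11, adjusted p = 0.226, limma). *Acvr1*, a type I receptor for BMPs and activins, fell from 16.3 ± 0.741 to 12.1 ± 1.44 FPKM (SD, n = 3; log2 fold change -0.44, adjusted p = 0.00778, limma). For the type II receptors *Acvr2a*, *Acvr2b* and *Bmpr2*, every *Xbp1* siRNA library was below every control library, as for 25.8% of all genes, with log2 fold changes of -0.69, -0.23 and -0.20, and none passed (adjusted p = 0.0570, 0.233 and 0.0615, limma). *Acvr2a* passed without control replicate 1 (adjusted p = 0.0457, limma) or *Xbp1* siRNA replicate 2 (adjusted p = 0.0480), with quantile normalization (adjusted p = 0.0340) and with a filter at a mean of 1 FPKM (adjusted p = 0.0467). *Bmpr2* also passed with this normalization and this filter (adjusted p = 0.0477 and 0.0466). *Tgfbr3*, the co-receptor betaglycan, was at 10.04 FPKM (SD 0.444) in the control group and 11.7 ± 0.526 FPKM after knockdown (SD, n = 3; log2 fold change 0.22, adjusted p = 0.0343, limma), and its adjusted p was between 0.0512 and 0.107 whichever library was left out.

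The Smads that carry the signal changed by smaller amounts, with 3 of 6 higher (50.0%), 1 lower (16.7%) and 2 not passing, beside the 20.2% of all genes in each direction. *Smad5*, a BMP Smad and the most abundant of the 6, had 20.2, 21.5 and 22.0 FPKM in the control libraries and 28.3, 28.6 and 26.3 FPKM in the *Xbp1* siRNA libraries. The groups did not overlap, and *Smad5* rose to 131% of the control mean, a log2 fold change of 0.39 (SE 0.06, adjusted p = 0.00129, limma). *Smad1*, also a BMP Smad, fell to 83.7% of the control mean (log2 fold change -0.25, adjusted p = 0.0281, limma). *Smad9*, the other BMP Smad, was at 1.90 FPKM in the control group and 2.24 FPKM after knockdown and did not pass (adjusted p = 0.205, limma), although it did with eBayes without trend (adjusted p = 0.0316).

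Of the Smads that act for TGF-beta and activin, *Smad2* was at 126% and *Smad3* at 120% of the control mean (log2 fold changes 0.33 and 0.26, adjusted p = 0.0266 and 0.0282, limma). *Smad4*, the partner of both kinds, was at 14.4 ± 0.129 and 14.5 ± 0.788 FPKM (SD, n = 3), with a 95% interval of the log2 fold change of -0.13 to 0.15. These results were lost in most of the fits without a library. *Smad1* still passed the adjusted p without control replicate 2 or *Xbp1* siRNA replicate 3, *Smad2* without *Xbp1* siRNA replicate 1 and *Smad3* without control replicate 2, and leaving out any other single library took the adjusted p above 0.05, at most to 0.0873, 0.0827 and 0.0808.

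**Figure D3:**
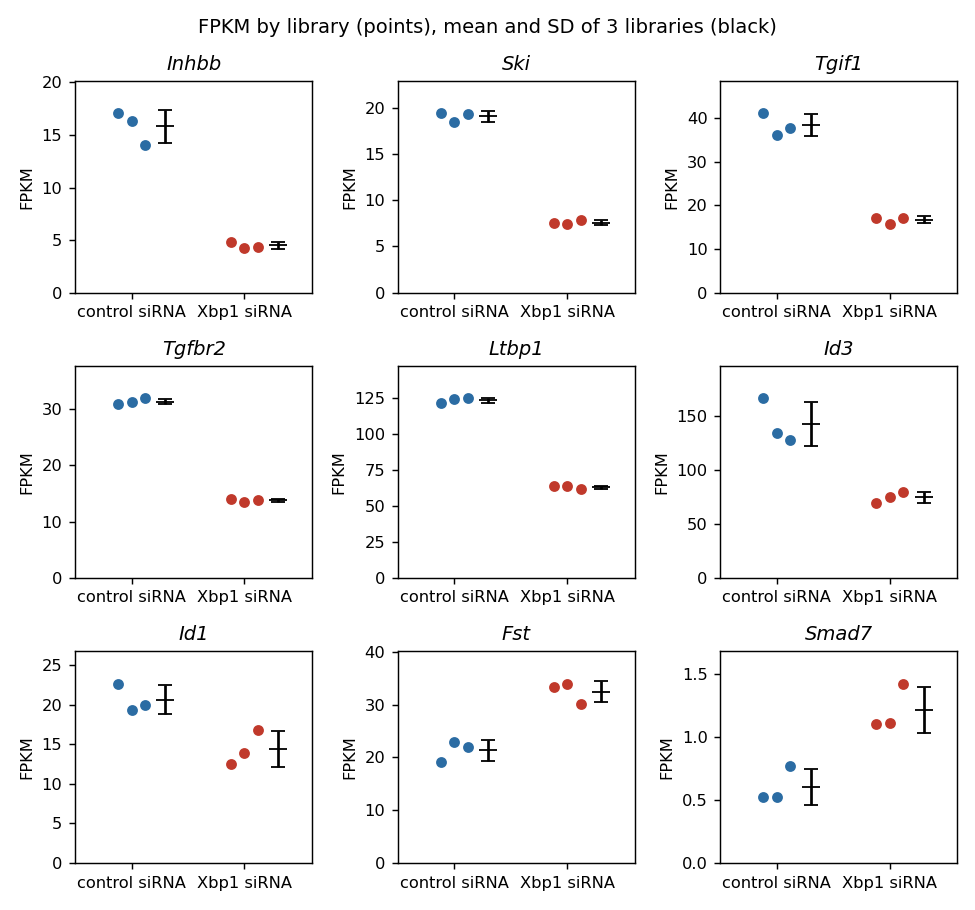
Each panel gives the FPKM of 1 gene, on an axis that starts at 0, with points for the 3 control (blue) and 3 *Xbp1* siRNA libraries (red) and the mean with its SD in black. *Inhbb*, *Ski*, *Tgif1*, *Tgfbr2*, *Ltbp1*, *Id3* and *Id1* are lower in every *Xbp1* siRNA library, and *Fst* and *Smad7* are higher in every one.

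Of the 9 inhibitors tested, 3 were lower (33.3%), 3 higher (33.3%) and 3 did not pass, where 20.2% of all genes were in each direction. *Ski* and *Tgif1*, corepressors that bind Smads in the nucleus, were lower. *Ski* had 19.4, 18.4 and 19.4 FPKM in the control libraries and 7.48, 7.40 and 7.83 FPKM in the *Xbp1* siRNA libraries. *Tgif1* had 41.0, 36.1 and 37.7 FPKM in the control libraries and 17.1, 15.7 and 17.2 FPKM in the *Xbp1* siRNA libraries. Neither gene had a library that overlapped the other group. The log2 fold change was -1.32 for *Ski* (SE 0.06, adjusted p = 6.21e-06, limma) and -1.19 for *Tgif1* (SE 0.06, adjusted p = 1.32e-05, limma). *Skil*, the paralog of *Ski*, was at 8.13 ± 0.428 FPKM in the control group and 7.98 ± 0.552 FPKM after knockdown (SD, n = 3), and the 95% interval of its log2 fold change, -0.22 to 0.17, did not reach that of *Ski*, -1.46 to -1.18.

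Of the inhibitors outside the nucleus, *Fst* encodes follistatin, a secreted protein that traps activins. *Fst* had 19.1, 23.0 and 22.0 FPKM in the control libraries and 33.3, 34.0 and 30.2 FPKM in the *Xbp1* siRNA libraries, all of the latter above all of the former. It rose to 152% of the control mean, a log2 fold change of 0.60 (SE 0.08, adjusted p = 8.50e-04, limma). The ratio of *Fst* to *Inhbb* within a library was 1.12 to 1.56 in the control group and 6.85 to 8.02 after knockdown. This ratio was formed after the values were seen, from genes that moved in opposite directions without overlap. *Bambi*, a decoy receptor without a kinase domain, fell to 77.1% of the control mean (log2 fold change -0.37, adjusted p = 0.0317, limma). *Bambi* did not pass without control replicate 1, control replicate 2 or *Xbp1* siRNA replicate 3 (adjusted p = 0.0544, 0.0998 and 0.0800, limma), nor with eBayes without trend (adjusted p = 0.0618). *Grem1*, a secreted BMP antagonist, was listed at 0 in all libraries.

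The inhibitory Smads were the least abundant of the 9 inhibitors tested. *Smad7*, which blocks the type I receptors, had 0.527, 0.520 and 0.768 FPKM in the control libraries and 1.10, 1.11 and 1.43 FPKM in the *Xbp1* siRNA libraries. The groups did not overlap, and the log2 fold change was 0.91 (SE 0.23, adjusted p = 0.0176, limma), or 0.46 with a pseudocount of 1. The adjusted p was 0.0533 without control replicate 2 and 0.0679 without *Xbp1* siRNA replicate 3, while without control replicate 3 the fold limit was also passed (log2 fold change 1.07). *Smad6*, which acts mainly on BMP signals, had 1.96, 0.735 and 1.12 FPKM in the control libraries and 2.42, 1.99 and 1.83 FPKM in the *Xbp1* siRNA libraries. Control replicate 1 lay within the range of the other group, and the log2 fold change of 0.76 did not pass (adjusted p = 0.0997, limma). Without that library it was 1.11 (adjusted p = 0.0136, limma), without control replicate 2 it was 0.45 (adjusted p = 0.245), and with a pseudocount of 1 it was 0.47 (adjusted p = 0.0973). Of the ubiquitin ligases that tag Smads and receptors, *Smurf1* was at 23.1 and 24.0 FPKM and did not pass (adjusted p = 0.591, limma), and *Smurf2* was at 24.9 and 27.6 FPKM (log2 fold change 0.15, adjusted p = 0.0361, limma), and it passed in 1 of the 6 fits without a library, the one without control replicate 3.

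The Id genes encode helix-loop-helix proteins that bind other transcription factors of this class and keep them from DNA, and they are common readouts of BMP signalling. *Id3*, the most abundant of the 34 genes in the control group, had 167, 135 and 128 FPKM in the control libraries and 69.6, 74.9 and 80.2 FPKM in the *Xbp1* siRNA libraries. *Id1* had 22.7, 19.3 and 20.0 FPKM in the control libraries and 12.4, 13.9 and 16.9 FPKM in the *Xbp1* siRNA libraries. For both genes the groups did not overlap. The log2 fold change was -0.93 for *Id3* (SE 0.10, adjusted p = 3.26e-04, limma) and -0.53 for *Id1* (SE 0.12, adjusted p = 0.00934, limma). Without control replicate 3, *Id3* reached the fold limit, at -1.002. *Id2* had 8.02, 3.81 and 3.42 FPKM in the control libraries and 4.47, 4.42 and 3.95 FPKM in the *Xbp1* siRNA libraries. Only control replicate 1 of *Id2* stood above the *Xbp1* siRNA range, and the log2 fold change was -0.14 with it and 0.24 without it, passing in neither case.

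The wider pathway was described with 7 lists holding 161 further symbols, of which 143 had an entry, 29 were listed at 0 in all libraries and 92 were tested. Of these 92 genes, 3 were called higher (3.26%) and 4 lower (4.35%), where 2.69% and 2.5% of all genes were, and with the adjusted p alone 21 were higher (22.8%) and 27 lower (29.3%), where 20.2% of all genes were in each direction. Their median log2 fold change was -0.04. In the fits without 1 library, 3 to 4 were called higher and 4 to 5 lower.

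Among the 6 other ligands tested, 1 was called lower and the other 5 did not pass. It was *Gdf11*, a ligand of the activin type, which had 6.16, 6.60 and 5.80 FPKM in the control libraries and 2.16, 1.92 and 1.77 FPKM in the *Xbp1* siRNA libraries (log2 fold change -1.62, SE 0.12, adjusted p = 5.08e-05, limma). *Gdf11* and *Inhbb* were thus the called ligand genes, both lower. Of the 6 other receptors and co-receptors tested, 4 were higher (66.7%) and 1 lower (16.7%) by the adjusted p alone, beside 20.2% of all genes in each direction, and the median log2 fold change was 0.39. The smallest adjusted p was that of *Cd109*, a TGF-beta co-receptor of the cell surface, which went from 13.0 ± 0.218 to 23.1 ± 1.24 FPKM (SD, n = 3; log2 fold change 0.83, adjusted p = 3.88e-05, limma).

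Of the 9 other extracellular antagonists and carriers tested, 3 were higher (33.3%) and 2 lower (22.2%). *Dcn*, which encodes decorin, a matrix proteoglycan that binds TGF-beta, had 6.32, 6.81 and 5.98 FPKM in the control libraries and 21.8, 22.8 and 22.0 FPKM in the *Xbp1* siRNA libraries (log2 fold change 1.79, SE 0.07, adjusted p = 3.78e-06, limma). *Fstl3*, a follistatin relative named after its values were seen, was at 1.84 ± 0.287 and 3.50 ± 0.299 FPKM (SD, n = 3; log2 fold change 0.90, adjusted p = 0.00285, limma). Of the 8 genes for activators of latent TGF-beta, 5 were higher (62.5%) and 1 lower (12.5%), beside 20.2% of all genes in each direction, and the median log2 fold change was 0.40. The lower one was *Itgb1*, the most abundant gene of this list, at 565 ± 3.86 FPKM in the control group and 365 ± 6.53 FPKM after knockdown (SD, n = 3). Its log2 fold change was -0.63 (adjusted p = 5.61e-06, limma). *Itgb5* and *Thbs1* did not pass. The called genes were those of the plasminogen activators. *Plat* had 6.03, 6.10 and 5.32 FPKM in the control libraries and 20.9, 19.6 and 21.4 FPKM in the *Xbp1* siRNA libraries (log2 fold change 1.81, SE 0.08, adjusted p = 5.35e-06, limma). *Plau* had 1.62, 1.72 and 2.29 FPKM in the control libraries and 6.49, 7.65 and 6.57 FPKM in the *Xbp1* siRNA libraries (log2 fold change 1.84, SE 0.15, adjusted p = 9.33e-05, limma). Both plasminogen activators were higher in every *Xbp1* siRNA library, with no overlap.

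**Figure D4:**
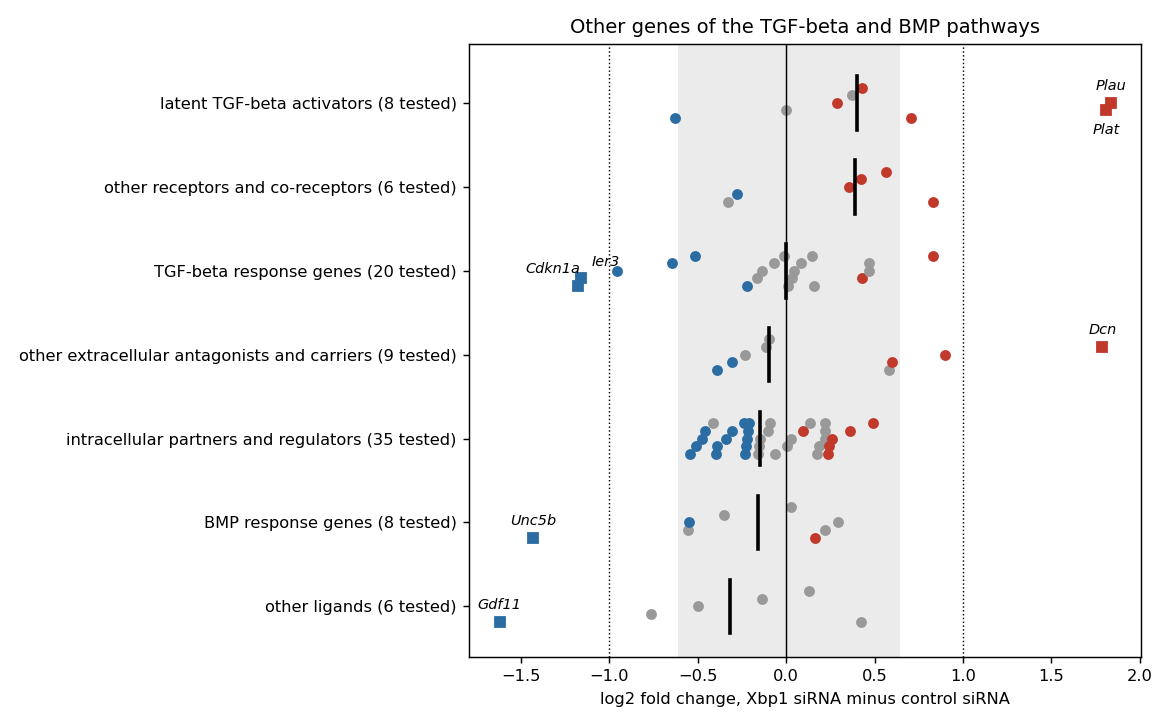
Each point is the log2 fold change, *Xbp1* siRNA minus control siRNA, of 1 of the 92 other pathway genes tested, by list on the y axis, with red for higher and blue for lower by the adjusted p, grey for not passing, squares for called genes and a black bar for the median of the list. Dotted lines mark the fold limit and the band the 10th to 90th percentile of all genes, and *Plau*, *Plat* and *Dcn* stand to the right of the limit while *Gdf11*, *Unc5b*, *Cdkn1a* and *Ier3* stand to the left.

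Of the 35 intracellular partners and regulators tested, 14 were lower (40.0%) and 6 higher (17.1%) by the adjusted p alone, beside 20.2% of all genes in each direction, and 0 were called, with a median log2 fold change of -0.14. The smallest adjusted p was that of *Fkbp1a*, whose product FKBP12 binds type I receptors and keeps them inactive. It fell from 474 ± 5.90 to 362 ± 2.13 FPKM (SD, n = 3; log2 fold change -0.39, adjusted p = 3.33e-05, limma), and its log2 fold change was -0.24 with quantile normalization.

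Genes known to respond to the pathway were also listed. Of the 20 TGF-beta response genes tested, 6 were lower, 2 higher and 12 did not pass, so that 40.0% passed in either direction, as did 40.4% of all genes, with a median log2 fold change of 0.00043. *Cdkn1a*, the cell cycle inhibitor p21, had 65.3, 60.9 and 63.4 FPKM in the control libraries and 28.4, 26.4 and 28.8 FPKM in the *Xbp1* siRNA libraries (log2 fold change -1.18, SE 0.05, adjusted p = 4.75e-06, limma). *Ier3*, an immediate early gene, had 28.0, 24.2 and 25.0 FPKM in the control libraries and 10.4, 12.7 and 11.4 FPKM in the *Xbp1* siRNA libraries (log2 fold change -1.16, SE 0.09, adjusted p = 6.37e-05, limma). Both genes also respond to signals other than TGF-beta. Named after its values were seen, *Fn1*, fibronectin, rose by 0.83 on the log2 scale (adjusted p = 2.15e-05, limma). Of the 8 BMP response genes tested, 2 were lower, 1 higher and 5 did not pass, so that 37.5% passed in either direction, near the 40.4% of all genes, with a median log2 fold change of -0.16. The called one was *Unc5b*, a netrin receptor gene, at 2.36, 2.02 and 1.97 FPKM in the control libraries and 0.855, 0.530 and 0.816 FPKM in the *Xbp1* siRNA libraries (log2 fold change -1.43, SE 0.22, adjusted p = 0.00162, limma). With a pseudocount of 1, the log2 fold change of *Unc5b* was -0.85 and it was not called.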

How the data were processed

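RNA from 6 samples of CHO-T cells, 3 with negative control siRNA and 3 with *Xbp1* siRNA, was prepared by the authors as stranded mRNA libraries and sequenced. The authors deposited 1 table of FPKM values per library, and the submitters' processing notes name HISAT2 2.1.0 and Cuffdiff 2.2.1. The genome build, the annotation and the use of strand in counting are not given in the sources used here, so symbols are used, with no coordinates or sequence, and reads of overlapping or antisense genes cannot be told apart. Raw counts, which the study tested with DESeq2, were not used here.

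FPKM values were compared on the log2(FPKM + 0.1) scale by limma 3.58.1 (lmFit, eBayes with trend) in R 4.3.3, over the 14361 entries with a mean of at least 0.1 FPKM, with Benjamini-Hochberg adjustment. The limits for a call, an adjusted p of 0.05 and a log2 fold change of 1 in size, were those of the study. The methods describe results in general as coming from independent experiments, but the labels do not say that the libraries of a group came from separate cultures, so p-values measure the spread between these samples, which may be technical. FPKM gives no read totals, but 76.3% of 3065 weak entries (mean up to 0.8 FPKM, above 0 in at least 4 libraries) fell on whole reads, within 0.03 reads plus 0.002 per read and up to 35 reads, and this gave the relative depth. Numbers of reads are the smallest whole numbers that fit these steps, and they carry at least counting error. Log2 values of libraries of 1 group correlated across genes at 0.966 to 0.972. Figures and counts were made in Python 3.11.15 with numpy 2.4.6 and pandas 2.3.3.

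The members, their roles and the 7 other lists were chosen with earlier results of these data known. Values in every library are given for called genes, for genes that passed the adjusted p with a log2 fold change of at least 0.5 in size, and for the most abundant gene of each role. Of the other lists, called genes are named, and otherwise the gene with the smallest adjusted p. Marker lists for mesenchymal, epithelial, granulosa, endothelial and leukocyte cells were examined, and the granulosa markers summed to 4.39 to 7.25 FPKM over the 6 libraries, the endothelial ones to 0.0262 to 0.412 FPKM (*Cdh5* at 0) and the leukocyte ones to 5.18 to 6.25 FPKM in the control libraries and 7.05 to 8.86 FPKM after knockdown, nearly all of it *Cd68*, which was higher by the adjusted p (log2 fold change 0.46, adjusted p = 0.0142, limma), with *Ptprc* and *Cd3e* at 0. The values of 1 gene of the other pathway lists are not reported here. A search for motifs in promoters was intended and was not run, since promoter sequences were not used here. All 39 genes had their symbol in the RefSeq gene table used for names, assembly CriGri-PICRH-1.0.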

Additional observations from a re-analysis of the deposited data

How the results depend on the processing

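There were 15 alternatives: pseudocounts of 1 and 0.01, no filter or one at a mean of 1 FPKM, median-ratio scaling, quantile normalization, eBayes without trend, a limit of 1.5-fold, the replicate number as a block, and leaving out each library in turn. They were applied to the other pathway genes, *Xbp1* and *Cdh13* after the data had been seen. Of 474 values recomputed for the 34 genes, 423 kept their direction and their side of the adjusted p of 0.05, 33 no longer passed, 10 newly passed and 8 changed sign. *Inhbb*, *Ski*, *Tgif1* and *Tgfbr2* were called under every alternative. With median-ratio scaling, 10 pathway genes were lower and 8 higher by the adjusted p alone, the same numbers as without it. The reversals were all in genes that did not pass. Without 1 library, the log2 fold change ranged from -0.37 to 0.24 for *Id2* (above 0 without control replicate 1), from -0.083 to 0.0023 for *Skil* (above 0 without control replicate 2 or *Xbp1* siRNA replicate 1 or 2), from -0.019 to 0.052 for *Smad4* (below 0 without *Xbp1* siRNA replicate 2 or 3) and from -0.018 to 0.11 for *Tgfbr1* (below 0 without *Xbp1* siRNA replicate 2). With quantile normalization, *Ltbp2* was at -0.0013. With a pseudocount of 1, 114 genes in all were called higher and 205 lower, and with a filter at 1 FPKM, which tests fewer genes, 242 were called higher. With a pseudocount of 0.01, 1 pathway gene was called higher (*Smad7*, log2 fold change 1.00), and with the limit of 1.5-fold, 2 were (*Fst* and *Smad7*) and 6 were called lower, with *Ltbp1* and *Id3* added. The median log2 fold change was -0.12 with the filter at 1 FPKM, which leaves out *Smad7* and *Tgfb2*, and -0.11 without a filter, which adds *Bmp4*. With these filter settings the log2 fold change of each of the 34 genes still tested was unchanged, and only the set of genes differed. With quantile normalization the median of the 34 genes was -0.065, and the cause of this shift was not tested. Leaving out 1 library at a time gave 0 to 1 pathway genes called higher, 4 to 5 called lower, 3 to 5 higher and 9 to 10 lower by the adjusted p alone, and a median of -0.10 to -0.028.

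Replicate numbers did not pair the libraries, as the deviations of same-numbered libraries from their group means correlated at -0.029, -0.027 and -0.012. With the replicate number as a block, 4 pathway genes were called lower, 0 were called higher, and 8 were higher and 11 lower by the adjusted p alone, the addition being *Ltbp3* (adjusted p = 0.0329, limma). Depth limits *Tgfb2*, which had 4 to 11 reads per library. For *Smad6* and *Smad7*, at about 1 to 2 FPKM or less, leaving out 1 library moved the adjusted p across 0.05.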

Other observations

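A few ratios between pathway genes were formed within each library, after the values had been seen, and are given as a description. The ratio of *Smad7* to *Ski*, both inhibitors, was 0.0272 to 0.0397 in the control libraries and 0.147 to 0.182 after knockdown. The ratio of *Ltbp1* to *Tgfb1*, the anchor and its ligand, was 6.90 to 7.88 in the control libraries and 3.70 to 4.02 after knockdown. *Eng*, the co-receptor endoglin and no member of the list of 42, rose from 264 ± 14.9 to 353 ± 15.5 FPKM (SD, n = 3; log2 fold change 0.42, adjusted p = 5.05e-04, limma), and *Tgfbr2* relative to *Eng* was 0.110 to 0.126 in the control libraries and 0.0379 to 0.0402 after knockdown. The ratio of *Id3* to *Id2* was 20.8 to 37.3 in the control libraries and 15.6 to 20.3 after knockdown, and control replicate 1 had the lowest control value. None of these ratios overlapped between the groups. For *Smad7* to *Ski* and *Tgfbr2* to *Eng* this follows from the single genes, which moved in opposite directions without overlap, and adds no result. With 3 libraries per group, 0.10 is the smallest p of a two-sided exact permutation test.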
